A study of Mus musculus with 6 samples.

Results

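The 10 genes described here, Fos, Fosb, Fosl2, Jun, Junb, Jund, Atf3, Egr1, Ier2 and Dusp1, are AP-1 and immediate early genes. Of them, 6 encode subunits of the transcription factor AP-1. They were taken by symbol from a count table of 54532 genes. Each symbol matched 1 row, and all 10 passed the filter on low counts, which left 14801 genes for testing. RNA from 2 cell populations of mouse cartilage was sequenced, 3 libraries of each. Both came from mice aged 1 month (Gli1-CreERT2; tdTomato, on the c57BL/6 background per the labels), in which tamoxifen (TAM) lets Cre, driven by Gli1, switch on the red protein tdTomato, and the cells were harvested a day after TAM. CD45-CD31-Ter119- cells were sorted into tdTomato+ cells, called Gli1+ here, and tdTomato- cells, called Gli1- here, so all 6 libraries carried the same Cre, reporter and drug, and the marker reports Cre activity under Gli1 rather than Gli1 protein itself. The study names costal cartilage as the source of the sorted cells and the labels name the growth plate. It states that the Gli1- cells came from the same mice as the Gli1+ cells and counts each group as 3 biological replicates; how many mice went into a library was not given in the sources used here.

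AP-1 is a dimer of leucine zipper proteins. JUN proteins can pair with each other or with a FOS protein, whereas FOS proteins need a JUN partner to bind DNA. Most genes of this group are switched on within minutes by growth factors, mechanical load or stress, through kinases that act on factors already bound at their promoters. Transcripts of such genes are short-lived. In cartilage AP-1 is known for its part in growth plate chondrocyte differentiation and for driving matrix metalloproteinase genes. Immediate early genes are also known to be induced while a tissue is being digested by enzymes, and both of the study's isolation protocols release cells with collagenase, the costal one after a protease step and with an overnight digestion, the growth plate one with a shorter digestion. What digestion contributed to the values below was not tested.

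Gli1, the check of the sort, was higher in all 3 Gli1+ libraries, at 4.55, 6.39 and 7.98 CPM (counts normalized to library size with TMM factors), than in the Gli1- libraries, at 0.724, 1.26 and 2.43 CPM. Library totals lay between 17114101 and 18602482 counts, so that the smallest count of any of the 10 genes, 115 for Jund in Gli1+ replicate 1, had a counting error of 9.33%. Gli1+ replicate 1 stood apart, with a count for 15000 genes against 20666 to 23360 in the other 5 libraries. In Gli1- replicate 1 the summed leukocyte markers reached 3295 CPM against 41.1 to 168 in the Gli1+ libraries. Results are therefore also given without replicate 1. In bulk RNA, fewer expressing cells and less RNA per cell cannot be told apart.

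These genes are compact. Their median span was 3809.5 bases against 24673 for the 12863 protein-coding genes tested. Jun, Junb, Jund and Ier2 have a single exon in their longest coding transcript, 4 of 10 genes (40%) against 2.68% of protein-coding genes, and none of the 10 has more than 4 exons, which 21.6% of protein-coding genes share. In the coordinates of the file (GRCm38), Fos lies at chr12:85473890-85477273, Fosb at chr7:19302696-19310051, Fosl2 at chr5:32135801-32157842, Jun at chr4:95049034-95052222 and Atf3 at chr1:191170296-191218039. Junb at chr8:84974484-84978718, Jund at chr8:70698949-70700616 and Ier2 at chr8:84661331-84662852 share a chromosome, and Dusp1 lies at chr17:26505590-26508519. Genes on the opposite strand overlap 4 of them: Junos overlaps Jun, Prdx2 overlaps Junb, Gm11175 overlaps Jund and Gm24748 overlaps Atf3. These overlaps are of whole gene spans, and overlap of exons was not looked at. The strand setting of the counting was not given in the sources used here, so whether these neighbours affected the counts of the 4 genes is not known.

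RefSeq promoters (GRCm38.p6, from 250 bases before to 50 bases after a gene's start) were matched for 8 of the 10 genes, all except Egr1 and Ier2. The promoters of Fos, Jun, Atf3 and Fosb are shown because these were the 4 genes called lower in Gli1+ cells by DESeq2 with the replicate block, and that of Dusp1 because it was the one gene with a mean log2 difference above 0. Capitals mark the cAMP response element (CRE) core TGACG on either strand (CGTCA when read on the other), the full CRE TGACGTCA, which contains the core on both strands, or in Jun the letters TGACATCA. Each is written 5' to 3' on the strand of its gene.
Fos, chr12:85473640-85473939, plus strand: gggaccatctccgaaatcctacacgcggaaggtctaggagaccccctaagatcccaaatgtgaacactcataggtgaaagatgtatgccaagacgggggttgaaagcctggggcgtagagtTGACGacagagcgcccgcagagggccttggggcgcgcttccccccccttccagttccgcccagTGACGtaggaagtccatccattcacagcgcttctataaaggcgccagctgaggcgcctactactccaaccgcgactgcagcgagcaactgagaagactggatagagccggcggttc
Jun, chr4:95052173-95052472, minus strand: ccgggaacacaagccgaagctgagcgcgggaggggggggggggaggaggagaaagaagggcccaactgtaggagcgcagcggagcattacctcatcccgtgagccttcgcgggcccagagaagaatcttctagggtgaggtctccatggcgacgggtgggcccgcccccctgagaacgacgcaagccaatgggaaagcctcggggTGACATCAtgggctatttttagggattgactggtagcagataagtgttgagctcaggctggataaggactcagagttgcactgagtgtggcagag
Atf3, chr1:191183284-191183583, minus strand: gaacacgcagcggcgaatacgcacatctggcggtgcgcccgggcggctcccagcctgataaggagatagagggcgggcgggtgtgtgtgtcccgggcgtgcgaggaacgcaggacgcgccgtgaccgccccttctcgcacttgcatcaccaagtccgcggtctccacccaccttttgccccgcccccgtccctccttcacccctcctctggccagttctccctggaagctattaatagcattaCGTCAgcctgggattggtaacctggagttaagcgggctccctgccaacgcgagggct
Fosb, chr7:19309996-19310295, minus strand: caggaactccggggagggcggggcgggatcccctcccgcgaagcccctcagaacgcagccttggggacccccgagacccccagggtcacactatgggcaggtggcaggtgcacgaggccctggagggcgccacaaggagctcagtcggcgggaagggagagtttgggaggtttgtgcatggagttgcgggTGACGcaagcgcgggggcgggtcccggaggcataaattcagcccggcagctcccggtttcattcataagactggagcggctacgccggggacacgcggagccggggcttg
Dusp1, chr17:26508423-26508722, minus strand: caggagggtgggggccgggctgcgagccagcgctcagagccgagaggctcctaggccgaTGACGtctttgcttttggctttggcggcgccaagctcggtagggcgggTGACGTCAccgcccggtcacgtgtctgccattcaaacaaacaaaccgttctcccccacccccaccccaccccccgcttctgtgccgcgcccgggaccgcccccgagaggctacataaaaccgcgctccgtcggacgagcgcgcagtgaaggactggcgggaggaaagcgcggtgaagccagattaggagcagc
The starts of Fos and Jun are those of the count table, those of Fosb and Dusp1 lie 6 and 47 bases inside the counted gene, and that of Atf3 lies 34706 bases inside it, at an internal start. Among the windows not shown, the start of Fosl2 lies 671 bases inside the counted gene. Those of Jund and Junb lie 1210 and 30 bases before theirs. The CRE core was found in 5 of the 8 promoters (Fos, Fosb, Junb, Atf3 and Dusp1), and in 20.8% of all 32851 promoters. Fos holds it at -129 and -66 from the start. TATAAA on the gene's own strand, in 8.32% of all promoters, was found in Fos at -33 and in Junb at position 1. The full CRE was found in Dusp1 alone, at -143, and in 1.79% of all promoters. The AP-1 site TGANTCA, in 7.81% of all promoters, was in none of the 8 windows. The CArG box, the site of serum response factor, in 1.63% of all promoters, was in none of them either. Sites more than 250 bases before a start lie outside these windows and were not searched. TGACATCA, searched for after the sequence of Jun was read, lies at -45 in Jun and in 3.62% of all promoters, and the EGR site GCGNGGGCG lies in the Fosb and Fosl2 windows and in 5.55% of all. These matches describe letters in a window and do not show that a factor was bound.

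The 3 FOS family genes among the 10 had lower mean levels in Gli1+ cells. Fosl1, a FOS family gene outside the 10, is given further below. Fos, the founding member, stood at 32.4, 204 and 118 CPM in Gli1+ replicates 1 to 3 and at 168, 400.4 and 256 CPM in Gli1- replicates 1 to 3. The highest Gli1+ library lay above the lowest Gli1- library, so the groups overlapped, yet within each replicate number the Gli1+ library was the lower one. Fosb, induced together with Fos in many cells, stood at 64.7, 270.0 and 336 CPM in Gli1+ and at 238, 509 and 932 CPM in Gli1- cells. Its order was the same within each number. Fosl2, which encodes FRA2, stood at 121, 218 and 221 CPM in Gli1+ and at 325, 346 and 275 CPM in Gli1- cells. Fosl2 was the steadiest of the 10 and the only one whose 3 Gli1+ libraries all lay below the 3 Gli1- libraries, a pattern shown by 4.45% of all genes tested (two-sided exact permutation p = 0.1, the smallest that 3 against 3 libraries allow).

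The JUN family varied more between libraries. Jun, the most abundant of the 10 per length of gene, stood at 205, 1575 and 671 CPM in Gli1+ and at 764, 4191 and 1722 CPM in Gli1- cells. Replicate 2 was the high one in both populations, and in each number the Gli1+ library was the lower. Junb, often a weaker activator than JUN, stood at 73.5, 983 and 467 CPM in Gli1+ and at 1011, 1537 and 877 CPM in Gli1- cells. Jund, usually the most steadily expressed JUN, stood at 6.08, 241 and 85.2 CPM in Gli1+ and at 110.0, 360.4 and 189 CPM in Gli1- cells. Both had a very low Gli1+ replicate 1, Gli1+ replicate 3 was below the Gli1- range as well, and Gli1+ replicate 2 lay within that range. The ratio of the highest to the lowest library was 59.2 for Jund, 20.9 for Junb and 20.5 for Jun, against a median of 4.28 over all genes tested.

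Atf3, a stress-induced leucine zipper factor that dimerizes with JUN proteins, stood at 64.6, 855 and 227 CPM in Gli1+ and at 343, 2083 and 528 CPM in Gli1- cells. Its profile followed that of Jun, with replicate 2 high in both populations. Egr1, a zinc finger factor induced by growth signals, stood at 396, 1139 and 1096 CPM in Gli1+ and at 1371, 1102 and 1931 CPM in Gli1- cells. In replicate 2 of Egr1 the populations were nearly level. Ier2, a small nuclear protein, stood at 98.4, 481 and 299.8 CPM in Gli1+ and at 335, 411 and 368 CPM in Gli1- cells. Outside Gli1+ replicate 1, the Gli1+ libraries of Ier2 lay on either side of the Gli1- libraries. Dusp1, a phosphatase that switches off MAP kinases and so limits the same induction, stood at 139, 737 and 584 CPM in Gli1+ and at 216, 589.8 and 401 CPM in Gli1- cells. Dusp1 was higher in the Gli1+ library of replicates 2 and 3 and lower in that of replicate 1.

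**Figure D1:**
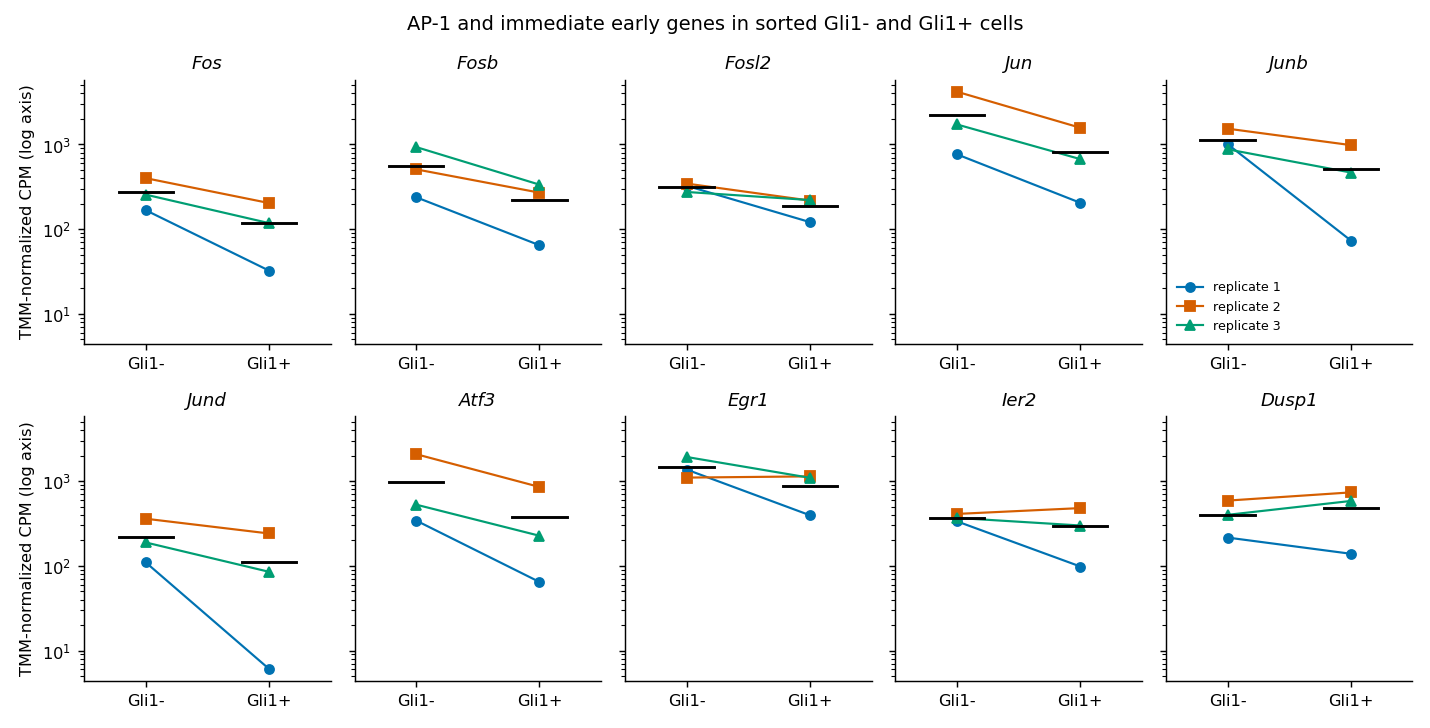
Level of each gene (TMM-normalized CPM, log axis) in the 3 Gli1- and 3 Gli1+ libraries; each color is a replicate number, lines join the libraries of a number, and black bars are group means (n = 3). The lines slope down from Gli1- to Gli1+ in all 3 numbers for 7 of the 10 genes, Gli1+ replicate 1 is the lowest point of every panel, and only for Fosl2 do the groups not overlap.

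Without the pairing of replicates, none of the 10 genes passed the test. The edgeR quasi-likelihood test with Benjamini-Hochberg adjustment over all genes, at an absolute log2 fold change (log2FC, Gli1+ over Gli1-) above 1 and an adjusted p under 0.05, called 0 of the 10 and 0 of the 14801 genes (0%). At an unadjusted p under 0.05 it held 0 of the 10, against 3.47% of all genes (514 genes); with no pairing, DESeq2 called 30 genes and limma-voom 0, again none of the 10. The log2FC was -1.45 ± 0.88 (standard error, SE) for Jun, -1.37 ± 1.01 for Atf3, -1.32 ± 0.73 for Fosb, -1.22 ± 0.68 for Fos and -1.17 ± 0.82 for Junb. It was -0.99 ± 1.04 for Jund, -0.76 ± 0.42 for Fosl2, -0.74 ± 0.56 for Egr1, -0.34 ± 0.58 for Ier2 and 0.28 ± 0.67 for Dusp1. The unadjusted p ran from 0.106 for Fosb to 0.694 for Dusp1 in this edgeR test. The median over the 10 was -1.08, with 9 of 10 below 0, beside a median of 0.0013 and 49.9% below 0 over all genes tested.

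Within replicate numbers the direction was steadier than the levels. Fos, Fosb, Fosl2, Jun, Junb, Jund and Atf3, 7 of the 10, were lower in the Gli1+ library of all 3 numbers, against 19.9% of all genes tested, and this count was 7 as well with DESeq2 size factors, with library totals alone and after the trend with GC content was removed. The log2 difference of Jun was -1.90, -1.41 and -1.36 in replicates 1 to 3. For Atf3 it was -2.41, -1.29 and -1.22, and for Fos -2.37, -0.98 and -1.12. Jun thus differed in each number by more than 1 on the log2 scale while its level ranged 20.5-fold. Junb differed by -3.78, -0.64 and -0.91 and Jund by -4.15, -0.58 and -1.15, so that replicate 1 carried most of the mean of these 2 genes. Egr1 (-1.79, 0.05 and -0.82) and Ier2 (-1.77, 0.23 and -0.30) had a difference above 0 in replicate 2. Dusp1 went the other way in replicates 2 and 3 (-0.64, 0.32 and 0.54).

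With the replicate number as a block, the SE of Jun, Fosb, Atf3 and Fos shrank more than their log2FC moved. The block takes same-numbered libraries as pairs, which the labels do not state. In edgeR with the block the log2FC was -1.56 ± 0.27 (SE) for Jun (unadjusted p = 0.0016), -1.42 ± 0.30 for Fosb (unadjusted p = 0.0041), -1.63 ± 0.35 for Atf3 (unadjusted p = 0.0042) and -1.48 ± 0.37 for Fos (unadjusted p = 0.0087). Fosl2 was the fifth gene under 0.05, at -0.80 ± 0.31 (unadjusted p = 0.047). That made 5 of 10, all lower in Gli1+, against 5.25% of all genes lower at this threshold, but no gene of the table was called after adjustment over all genes by edgeR with the block, and the adjusted p of Jun was 0.335. DESeq2 with the block did call Jun (log2FC -1.57, adjusted p = 6.05e-05), Atf3 (-1.64, adjusted p = 0.00117), Fosb (-1.43, adjusted p = 0.00249) and Fos (-1.49, adjusted p = 0.00953), 4 of 10, where it called 2.11% of all genes lower. Jund and Junb missed that threshold at adjusted p = 0.067 and 0.0761 in DESeq2 with the block, followed by Fosl2 (0.261), Egr1 (0.353), Ier2 (0.648) and Dusp1 (0.971).

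**Figure D2:**
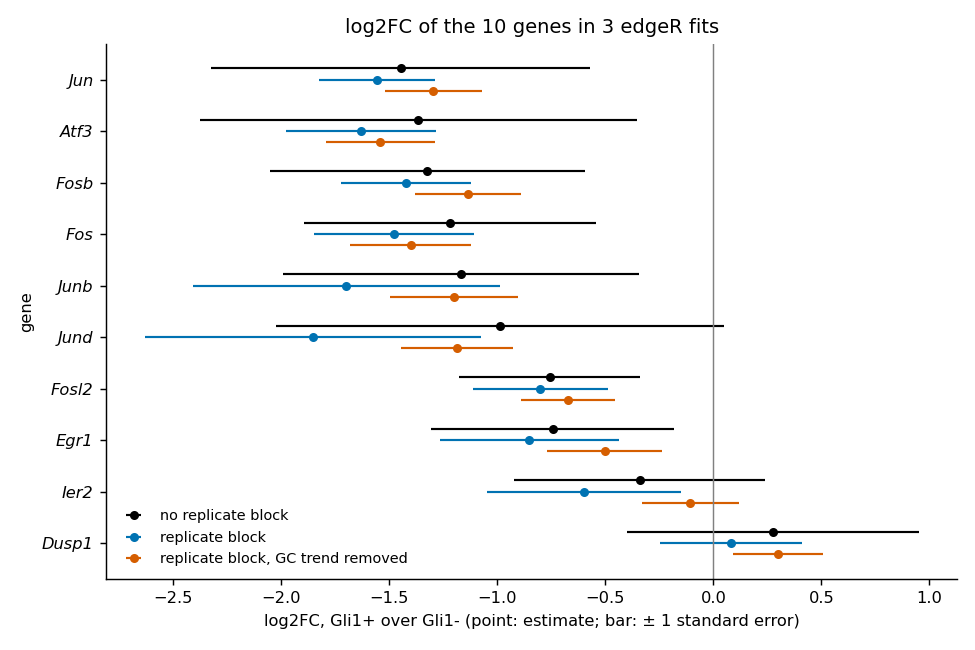
log2FC (Gli1+ over Gli1-, x axis) of each gene (y axis) in edgeR without a replicate block (black), with it (blue) and with it after removal of the GC trend (orange); bars are ± 1 SE over 3 libraries per group. Jun lies at -1.45, -1.56 and -1.30 in the 3 fits, Jund moves from -0.99 to -1.85 and -1.19, and Dusp1 is the only gene to the right of 0.

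Leaving out both libraries of replicate 1 kept the direction of Jun, Fosb, Atf3 and Fos. Without the block their log2FC was then -1.40, -1.26, -1.28 and -1.04, and the median over the 10 genes was -0.75. With the block and replicate 1 left out, edgeR called the same 4 genes: Jun (-1.39, adjusted p = 8.3e-10), Atf3 (-1.26, adjusted p = 6.5e-08), Fosb (-1.20, adjusted p = 4.5e-07) and Fos (-1.05, adjusted p = 1.5e-05). That fit rests on 4 libraries with 1 residual degree of freedom. Its SE was nearly the same for each gene, at 0.204 for Jun, 0.206 for Atf3, and 0.209 for Fosb and Fos. Its adjusted p-values therefore say little about the spread of each gene on its own. The fit called 1201 of 15331 genes tested, 716 of them lower in Gli1+ cells. The log2FC of Ier2 was 0.05 without Gli1+ replicate 1, and that of Dusp1 0.70. Without Gli1- replicate 2, the highest library for 6 of the 10 genes, the log2FC was -0.62 for Jun and -0.20 for Atf3 without the block.

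Per kilobase of gene, the levels of the 10 genes spanned a wide range. The mean over 6 libraries was 477 CPM per kb for Jun, 358 for Junb, 317 for Atf3, 262 for Egr1, 218 for Ier2 and 165 for Dusp1. Lower stood Jund at 99.1 CPM per kb, Fos at 83.5, Fosb at 62.7 and Fosl2 at 25.9. Jun exceeded Junb in 5 of 6 libraries, Junb exceeded Atf3 in 5 and Ier2 exceeded Dusp1 in 5, whereas Atf3 exceeded Egr1 in only 2, so the order of Atf3 and Egr1 was not stable. Dusp1 exceeded Jund in 6 of 6 libraries, Egr1 exceeded Ier2 in 4, Jund exceeded Fos in 4, Fos exceeded Fosb in 4 and Fosb exceeded Fosl2 in 5.

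Among the 10 genes, JUN family transcripts outnumbered FOS family transcripts in every library. Summed per kilobase, the JUN family (Jun, Junb and Jund) stood at 99.8, 1066 and 464 CPM per kb in Gli1+ and at 745, 2199 and 1035 CPM per kb in Gli1- cells (two-sided exact permutation p = 0.3). The FOS family (Fos, Fosb and Fosl2) stood at 36.7, 152 and 127 CPM per kb in Gli1+ and at 143, 287 and 287 CPM per kb in Gli1- cells (two-sided exact permutation p = 0.2). Their ratio was 2.72, 7.0 and 3.66 in Gli1+ and 5.21, 7.65 and 3.61 in Gli1- cells, with no separation of the populations (two-sided exact permutation p = 0.6). Both sums were lower in the Gli1+ library of all 3 numbers, which these permutations do not use. The FOS sum leaves out Fosl1, a FOS family gene outside the 10. Fosl1 stood at 208, 207 and 317 CPM per kb in Gli1+ and at 471, 183 and 375 CPM per kb in Gli1- cells. In Gli1+ replicate 1 Fosl1 alone lay above the JUN sum of 99.8 CPM per kb, so the order and ratios hold only for the genes summed. The share of Fos in the summed level per kilobase of the 10 genes stayed between 3.52% and 4.56%, the narrowest of the 10, while that of Jun ran from 14.5% to 31.4%. Dusp1 per kilobase was 0.583, 1.08 and 0.886 times Egr1 in Gli1+ and 0.262, 0.890 and 0.345 times Egr1 in Gli1- cells, higher in the Gli1+ library of each number although the groups overlapped between numbers.

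The 10 genes went up and down together across libraries. Their summed level was 1201, 6703 and 4105 CPM in Gli1+ and 4881, 11530 and 7479 CPM in Gli1- replicates 1 to 3, and they took from 0.125% of all counts in Gli1+ replicate 1 to 0.935% in Gli1- replicate 2. Over the 6 libraries, Pearson's r of log2 CPM was above 0 for 45 of 45 pairs of genes, with a median of 0.851. The closest pair was Jun with Atf3 (0.985) and the loosest Fosl2 with Dusp1 (0.466). These r values share the same 6 libraries and depend on how far Gli1+ replicate 1 lies from the rest. Among genes outside the lists used here, the patterns most like the mean of the 10 were those of Foxc1 (r = 0.9988), Gm42928 (0.998), Abhd14a (0.997), Gm47920 (0.997) and Hoxa2 (0.997) over 6 libraries, and 1263 of all genes tested (8.53%) had an r above 0.9.

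Gli1+ replicate 1 was the lowest library for 10 of 10 genes, against 36.1% of all genes tested, and that library also moved with GC content. Its log2 CPM minus the mean of the other 5 libraries had a median of 0.50 over genes with a transcript GC content under 45% and of -1.63 over those of 60% or more. The 10 genes had 51.9% to 67.1% GC, with a median of 55.8% against 50.5% for protein-coding genes. They lay between -1.16 (Fosl2) and -4.80 (Jund) on the same scale, each below the median of its GC range. Jund is the richest in GC of the 10 and the lowest. Fos, at 51.9% GC, lay at -2.69, and genes of 50% to 55% had a median of -0.35. After each library's GC trend was removed and the block kept in edgeR, 7 of the 10 genes had an unadjusted p under 0.05, all lower in Gli1+, against 11.7% of all genes in either direction in that fit, with log2FC values of -1.19 ± 0.26 (SE) for Jund and -1.20 ± 0.30 for Junb, and none was called. The part of GC content in the low values of that library was not tested.

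**Figure D3:**
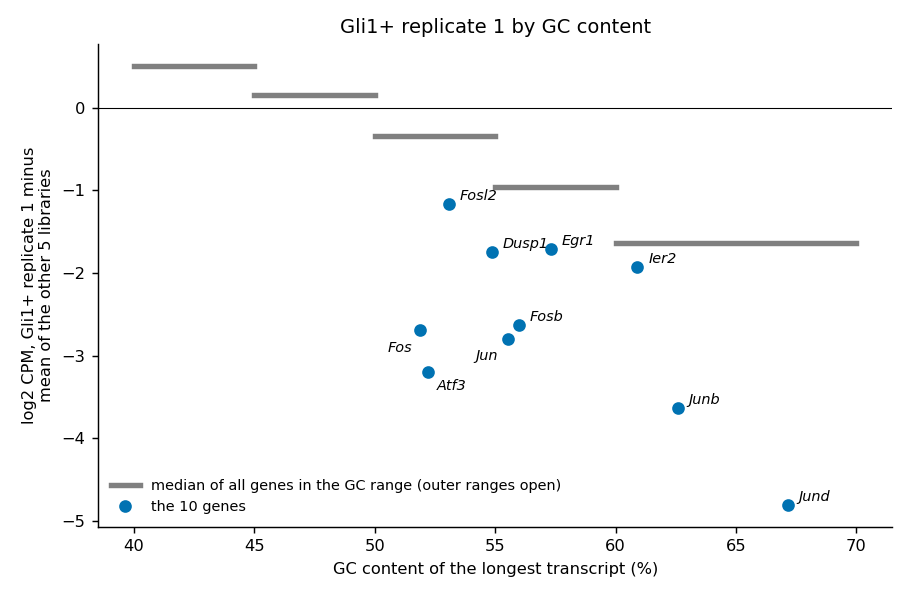
GC content of each gene's longest transcript (%, x axis) against log2 CPM in Gli1+ replicate 1 minus the mean of the other 5 libraries (y axis) for the 10 genes (blue), with the median of all genes in each GC range (grey bars). The medians step down from 0.50 to -1.63 with rising GC, and all 10 genes lie below the bar of their range, from -1.16 for Fosl2 to -4.80 for Jund.

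Most of the wider immediate early group also had lower mean levels in Gli1+ cells. Of 39 other immediate early genes tested, 31 had a log2FC below 0, with a median of -0.58, and 24 (61.5%) were lower in the Gli1+ library of all 3 numbers, against the 19.9% of all genes. In edgeR without the block, 1 of the 39 had an unadjusted p under 0.05 and none was called; with the block, 9 lower and 2 higher had an unadjusted p under 0.05, against 5.25% of all genes lower and 3.36% higher, and none was called. Zfp36l1, an RNA-binding protein that speeds the decay of short-lived transcripts, stood at 31.4, 63.2 and 37.3 CPM in Gli1+ and at 103, 97.2 and 85.3 CPM in Gli1- cells, with no overlap (edgeR log2FC -1.12 ± 0.41 SE, unadjusted p = 0.026). Errfi1, a feedback inhibitor of the EGF receptor, was lower by a similar amount in every number, with log2 differences of -0.54, -0.60 and -0.62. Gadd45b, a stress gene, varied 36.5-fold between libraries, with log2 differences of -2.98, -0.59 and -0.75. Hbegf, an EGF receptor ligand, differed by -0.75, -0.10 and -0.12.
Ctgf and Cyr61, matrix-associated proteins induced by serum and mechanical strain, went the other way in most numbers, with log2 differences of 0.08, 1.25 and 1.00 for Ctgf and of -0.10, 1.05 and 0.84 for Cyr61.

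**Figure D4:**
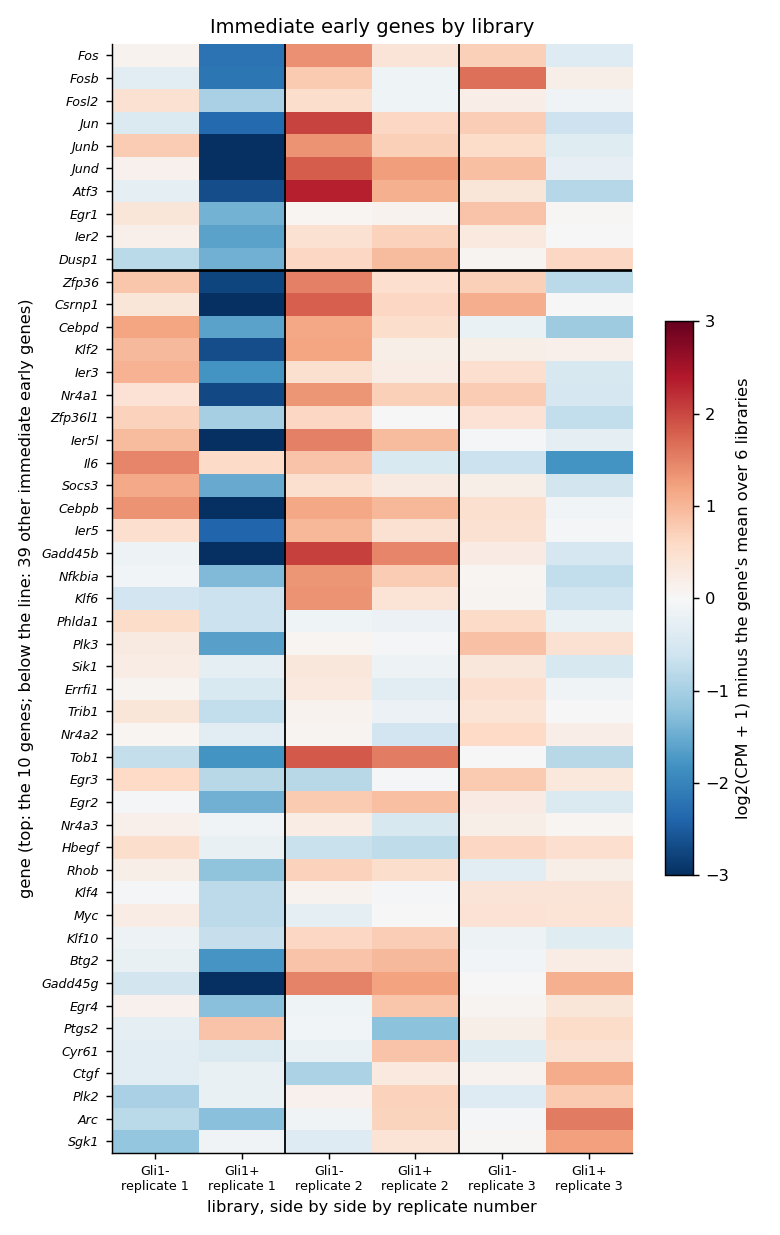
log2(CPM + 1) of each gene minus its mean over the 6 libraries (color), for the 10 genes (above the black line) and 39 other immediate early genes (below it, ordered by log2FC), with the Gli1- and Gli1+ libraries of a replicate number side by side (x axis). Gli1+ replicate 1 is the lowest library for all 10 genes and for 30 of the 39, and Ctgf, Plk2 and Sgk1 are the 3 of the 39 higher in the Gli1+ library of every number.

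The rest of the AP-1 and MAP kinase machinery was mixed. Over all genes tested, 19.9% were lower in the Gli1+ library of all 3 numbers. With the block in edgeR, 5.25% of all genes were lower and 3.36% higher at an unadjusted p under 0.05. Among 11 other tested AP-1 family genes, none had an unadjusted p under 0.05 in edgeR without the block and 1, Maff, was lower at that threshold with it, 6 had a log2FC below 0 and 4 were lower in all 3 numbers (36.4%). Fosl1, which encodes FRA1, stood at 355, 353 and 542 CPM in Gli1+ and at 803, 312 and 640.2 CPM in Gli1- cells. Maff and Mafk, small MAF proteins without an activation domain, were lower in the Gli1+ library of all 3 numbers (log2 differences of -3.01, -0.51 and -1.06 for Maff and of -1.75, -0.19 and -0.46 for Mafk). Of 19 upstream kinases and factors, none had an unadjusted p under 0.05 without the block and 1 was lower at that threshold with it, the median log2FC was 0.07 and 3 were lower in all 3 numbers (15.8%). Srf, the factor that binds CArG boxes, had a log2FC of 0.07 ± 0.46 (SE), and Mapkapk2, a kinase below p38, -0.44 ± 0.44. Of 10 other phosphatases of Dusp1's family, none had an unadjusted p under 0.05 without the block and 4 were lower in all 3 numbers (40%). With the block, 4 lower and 1 higher had an unadjusted p under 0.05, and none was called. Dusp5 and Dusp6, which also act on MAP kinases, had log2FC values of 0.28 ± 0.44 (SE) and 0.13 ± 0.45, and Dusp8, which acts on JNK and p38, -0.90 ± 0.67.

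Of the metalloproteinase genes known as AP-1 targets, Mmp13, Mmp3 and Mmp10 had higher levels in every Gli1+ library, and Mmp9 did not. Mmp13, the main collagenase of cartilage, stood at 5328, 2861 and 4859 CPM in Gli1+ and at 457, 592 and 607 CPM in Gli1- cells. Mmp3, stromelysin 1, stood at 5218, 7947 and 16268 CPM in Gli1+ and at 2398, 2545 and 4374 CPM in Gli1- cells, and Mmp10, stromelysin 2, at 97.1, 26.8 and 108 CPM in Gli1+ and at 18.5, 7.89 and 13.9 CPM in Gli1- cells. These 3 of the 9 targets had every Gli1+ library above every Gli1- library, as did 4.04% of all genes tested. Of the 9, 4 had an unadjusted p under 0.05 in edgeR without the block, all higher, against 1.43% of all genes higher at this threshold, and none was called: Mmp13 (log2FC 2.98 ± 0.54 SE), Mmp10 (2.53 ± 0.62), Mmp3 (1.66 ± 0.65) and the cyclin gene Ccnd1 (1.46 ± 0.59). In replicate 1, where Jun in the Gli1+ library was 205 CPM, Mmp13 in the same library was 5328 CPM, the highest of the 6. That library is the one that stood apart in genes counted and moved with GC content. What the AP-1 levels had to do with the levels of these targets was not tested. Mmp9, a gelatinase also made by neutrophils, stood at 16.5, 7.49 and 6.35 CPM in Gli1+ and at 399, 3.98 and 1.85 CPM in Gli1- cells (log2FC -3.74 ± 1.76 SE); it was named after its values were seen, and its high library is Gli1- replicate 1, the one high in leukocyte markers. Hmox1, the heme-degrading stress enzyme, had a log2FC of -0.09 ± 0.63 (SE).

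**Figure D5:**
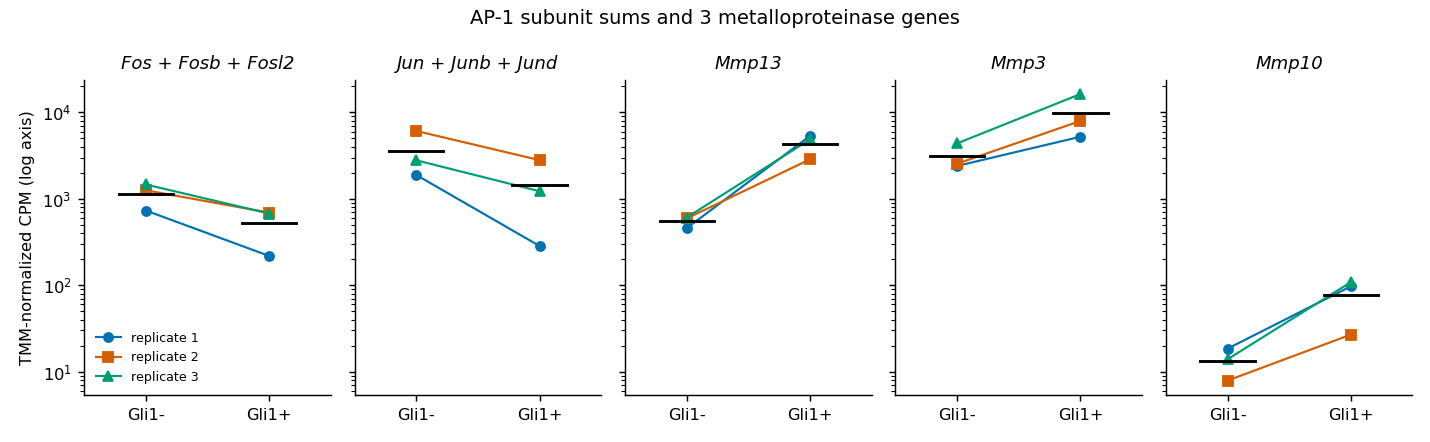
Summed level of the FOS family and JUN family genes and level of Mmp13, Mmp3 and Mmp10 (TMM-normalized CPM, log axis) in the 3 Gli1- and 3 Gli1+ libraries; colors are replicate numbers and black bars group means (n = 3). Both sums are lower in the Gli1+ library of all 3 numbers, while the 3 metalloproteinase genes are higher there and their groups do not overlap.

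Heat shock genes also had lower mean levels in Gli1+ cells. All 10 heat shock genes tested had a log2FC below 0 (median -0.46) and 8 (80%) were lower in the Gli1+ library of all 3 numbers, against the 19.9% of all genes. In edgeR none had an unadjusted p under 0.05 without the block, and 4 were lower at that threshold with it, against 5.25% of all genes, with none called. Their summed level ran from 12307 to 24654 CPM in Gli1+ and from 20119 to 50274 CPM in Gli1- cells, highest in replicate 2 of both populations. Hspa1b, an inducible HSP70, stood at 813, 6986 and 1909 CPM in Gli1+ and at 4872, 15709 and 7211 CPM in Gli1- cells. The small heat shock protein gene Hspb1 differed by -4.75, -1.38 and -2.63 on the log2 scale in replicates 1 to 3, and Hsp90ab1, a constitutive HSP90, by -0.02, -0.40 and -0.02. What the heat shock response had to do with the AP-1 values was not tested.

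Markers of the labelled cell type were present in both populations. The 9 chondrocyte markers summed to 7940 to 18515 CPM in Gli1+ and to 6010 to 24309 CPM in Gli1- cells, and none had an unadjusted p under 0.05 without the block, while 2, Comp and Matn1, were lower at that threshold with it (Matn1 was named after its values were seen). Col2a1, cartilage collagen, reached 12239 and 13534 CPM in the replicate 2 libraries, against 2130 to 3240 CPM in the other 4. The replicate 2 libraries also had the most Atf3. Acan ran opposite to Col2a1, with its lowest levels in replicate 2 (677 CPM for Gli1+, 591 CPM for Gli1-) and 957 to 2620 CPM elsewhere. Gli1- replicate 2 was the highest library for 6 of the 9 markers. Acan had a log2FC of 0.94 ± 0.66 (SE) and Comp of -1.52 ± 0.76 in edgeR. Of the 10 leukocyte markers 7 were tested, and 4 had an unadjusted p under 0.05, all lower in Gli1+ (S100a8, S100a9, Lyz2 and Ptprc), with Gli1- replicate 1 alone high; none of these 4 had one under 0.05 with the block. Without that library the log2FC of Jun was -1.86 and that of Fos -1.48 without the block. Fibroblast markers, 6 of 6 tested, summed to 252 to 677 CPM in Gli1+ and to 512 to 1740 CPM in Gli1- cells. Of these 6, 5 had a log2FC below 0 and 1 above (median -1.27), and 4 (66.7%) were lower in all 3 numbers, against 19.9% of all genes. With the block in edgeR, 3 were lower at an unadjusted p under 0.05, against 5.25% of all genes, and none was called. Without the block, Pdgfra had a log2FC of -1.97 ± 0.46 (SE, unadjusted p = 0.0025 in edgeR), and Lum and Col3a1 had -0.40 ± 0.66 and -1.25 ± 0.97. Endothelial markers summed to 1.16 to 1.79 CPM in Gli1+ and 2.43 to 9.41 CPM in Gli1- cells over Pecam1 and Cdh5, the 2 of 6 tested. Erythroid markers summed to at most 4.18 and 18.4 CPM (2 of 4 tested, Hbb-bs and Hba-a1, both at 0 in Gli1+ replicate 1), and skeletal muscle markers to at most 35.0 and 22.9 CPM (2 of 6 tested, Tnnt3 and Acta1). The part that these other cells had in the values of the 10 genes was not tested.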

How the data were processed

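RNA-seq was performed on sorted Gli1+ and Gli1- cells, 3 libraries each, from poly-A RNA. The authors deposited 1 table of counts, whole numbers of reads per gene and library, without normalization; the submitters' notes name HISAT2 2.0.5, featureCounts 1.5.0-p3 and mm10, and the strand setting was not given in the sources used here. The 10 genes and all gene lists were chosen with earlier results of these data known. No column of per-sample values was left unused.

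Counts were filtered (filterByExpr, minimum 10), scaled by TMM and tested with the quasi-likelihood test of edgeR 4.0.16 (limma 3.58.1, R 4.3.3), with no block, and p-values were adjusted by Benjamini-Hochberg over 14801 genes. DESeq2 1.42.0 (Wald test), limma-voom, other scalings and filters, left-out libraries and a replicate block were alternatives, and the GC correction and the block without replicate 1 were added after the data were seen. SE is the absolute log2FC divided by the square root of F. The scripts were tested on simulated data. Levels are CPM with TMM factors, per kilobase of the file's gene length only where genes are compared. P-values measure the spread between libraries, which may in part be technical.

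According to the study, the Gli1- cells were from the mice that gave the Gli1+ cells. The labels do not say that a shared replicate number marks the same mice. Deviations of same-numbered libraries from their group means correlated at 0.223, 0.72 and 0.471 over all genes tested, all above 0.1. On that basis the numbers were taken as pairs, which is an assumption behind the block fits and the counts within numbers. Of the 6 unlike-numbered pairs, 2 were above 0.1, namely the first Gli1+ with the third Gli1- library (0.274, above the 0.223 of its own number) and the reverse (0.107). Coordinates are those of the file, which matched GENCODE M21 (GRCm38) for 53499 of 54409 genes found (98.3%) and for 9 of the 10 genes. Transcript GC is that of the longest protein-coding transcript. Named genes are all 10, the genes of each list at an unadjusted p under 0.05 and its 3 most abundant (5 for other immediate early genes), Gli1, and the 5 genes most like the mean of the 10; 1 gene that this rule names is not reported here.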

Additional observations from a re-analysis of the deposited data

How the results depend on the processing

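The log2FC of Fos, Fosb, Fosl2, Jun, Junb, Jund, Atf3 and Egr1 stayed below 0 under all 19 alternatives. With a library left out, that of Ier2 ran from -0.91 (Gli1+ replicate 2 left out) to 0.050 (Gli1+ replicate 1 left out). That of Dusp1 ran from -0.16 to 0.70 in the same 2 fits, and was -0.025 when Gli1- replicate 1 was left out. Over all genes, 267 of 28536 were called with no filter on low counts and 30 of 14801 by DESeq2. DESeq2 with the replicate block called 428 of 14801. With the block and replicate 1 left out, edgeR called 1201 of 15331 and DESeq2 781 of 15331. Under the others 0 were called, including edgeR with the replicate block and each left-out library. Of the 10 genes, 4 were called in each of those 3 fits with the block (Jun, Atf3, Fosb and Fos) and 0 under the other alternatives. At an unadjusted p under 0.05 the count of the 10 was 3 with no filter (4.61% of all genes), 5 with the replicate block (8.61%), 7 with the block and the GC trend removed (11.7%), 8 by DESeq2 with the block (11.7%), 8 in both block fits without replicate 1 (7 lower, 1 higher; 25.6% of all genes in edgeR and 17.3% in DESeq2), and 0 to 4 with a library left out (4 without Gli1+ replicate 2, 7.65%). For the 39 other immediate early genes it was 8 with no filter, 3 by DESeq2, 3 by limma-voom, 11 with the replicate block, 18 by DESeq2 with the block, 21 with the block and the GC trend removed, 23 and 20 in the block fits of edgeR and DESeq2 without replicate 1, 0 without both libraries of replicate 1, and 0 to 9 with a library left out. Genes of the 10 whose groups did not overlap numbered 3 with library totals alone and 4 without both libraries of replicate 1. With a library left out they numbered 1 to 8 (8 without Gli1+ replicate 2, 4 without Gli1- replicate 1). The share of all genes tested was not counted for these settings, so these counts are not read as a result about the 10 genes. Where libraries were left out, smaller groups also separate more easily. This count was not made for the block, DESeq2, limma-voom and GC fits. The causes of these shifts were not tested. With 3 libraries per group and a common biological coefficient of variation of 0.662, precision was set by the spread between libraries and not by depth.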

Other observations

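Within the 39 other immediate early genes, Sgk1, Plk2 and Ctgf were higher in the Gli1+ library of all 3 replicate numbers; Sgk1 and Plk2 were chosen after their values were seen. Sgk1, a kinase induced by serum and glucocorticoids, stood at 493, 709 and 1242 CPM in Gli1+ and at 236, 403 and 542 CPM in Gli1- cells (log2FC 1.02 ± 0.25 SE and unadjusted p = 0.0081 in edgeR with the replicate block, adjusted p = 0.402). Plk2, a polo-like kinase, stood at 343, 652 and 699.6 CPM in Gli1+ and at 204, 438 and 306 CPM in Gli1- cells (0.84 ± 0.27 SE and unadjusted p = 0.023 in the same edgeR fit, adjusted p = 0.497). Neither passed the adjusted test. Unlike the 10 genes, neither had Gli1+ replicate 1 as its lowest library.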
